A study of Homo sapiens with 22 samples.

Results

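Chromatin accessibility of WM989 cells sorted as high for both EGFR and NGFR was compared with that of cells sorted as high for NGFR, by ATAC-seq in 3 libraries per sort. The 6 libraries were taken by their labels from the 12 ATAC libraries of a series of 22 samples. The comparison asks what high EGFR adds to high NGFR. WM989 is a human melanoma cell line with a mutated BRAF gene, so that all libraries come from 1 line, and the rest of the series is single-cell RNA-seq of melanoma lines. The 4 sorts are EGFR/NGFR-high, NGFR-high, EGFR-high and Mix. The study's methods list, beside the 3 sorts with high receptors, cells negative for both, whereas the labels call the remaining sort Mix. Whether Mix stands for those negative cells or for unselected cells is not stated, and this bears on every value given for Mix. No drug or other agent is named for any of these cells. Whether the NGFR-high cells were also gated as low for EGFR, or the EGFR-high cells as low for NGFR, is not stated either, so that the sorts may overlap. Nothing in the sources states that replicates are separate cultures, and p-values then measure only the spread between these libraries, which may be technical. Peak intervals of the 12 libraries were merged into 151653 regions found in at least 3 libraries, and 93683 of these (61.8%) held a peak in all 6 libraries of the comparison.

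EGFR is a receptor tyrosine kinase that binds growth factors of the EGF family and signals through the MAP kinase and PI3K pathways. NGFR, also named p75NTR, is a receptor for neurotrophins that is typical of neural crest cells. In melanoma both receptors are known as markers of rare untreated cells that are more likely to become resistant once BRAF and MEK are inhibited. The study calls this state primed. ATAC-seq inserts sequencing adapters into open chromatin with the transposase Tn5. Promoters of active genes and distal enhancers give most of its peaks, and enhancers hold most of the differences between cell states.

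The sequences below lie around the summits of the regions that came closest to a difference between the sorts, apart from some that are not shown. They are shown so that the content of these regions can be read. Each has 60 bases of the hg38 reference on the plus strand, and capitals mark matches to any of the 14 motifs searched on both strands. The first 4 regions were higher and the last 3 lower in EGFR/NGFR-high cells, and those of FOXP1 and COG2 passed the test.
FOXP1, chr3:71425913-71425972: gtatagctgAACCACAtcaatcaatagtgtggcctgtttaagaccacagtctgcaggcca
COG2, chr1:230690216-230690275: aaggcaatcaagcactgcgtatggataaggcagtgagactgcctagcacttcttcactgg
ST6GAL2, chr2:107002471-107002530: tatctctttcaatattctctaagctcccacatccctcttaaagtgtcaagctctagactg
PROK2, chr3:71949517-71949576: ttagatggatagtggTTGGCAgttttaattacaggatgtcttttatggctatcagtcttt
CSPG4, chr15:75696587-75696646: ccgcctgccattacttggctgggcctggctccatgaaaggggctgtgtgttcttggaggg
AATK, chr17:81128970-81129029: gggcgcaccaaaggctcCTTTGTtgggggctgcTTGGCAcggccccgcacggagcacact
TTYH2, chr17:74245642-74245701: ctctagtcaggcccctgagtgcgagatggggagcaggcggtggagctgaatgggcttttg
The capitals near FOXP1 are a match to the RUNX motif TGTGGTT, which 3.48% of all 60-base windows outside promoters hold. Those near PROK2 and AATK are matches to the NFI motif TTGGCA, held by 3.26% of windows outside promoters and 2.32% of windows in promoters. AATK also holds the SOX motif ACAANG, found in 10.98% of promoter windows. COG2, ST6GAL2, CSPG4 and TTYH2 held none of the 14 motifs in these 60 bases. A match is a description of the letters only.

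The values are the fold enrichment of each peak over background, taken from the deposited lists. The lists held between 159758 and 180754 distinct intervals in the 6 libraries after repeated entries were dropped, and between 148429 and 166828 in the 6 libraries of the other sorts. Every fold enrichment was a whole multiple of a step of its own library, which gives the mean pileup of reads over the genome. This background was 2.36, 1.12 and 1.02 reads in EGFR/NGFR-high replicates 1 to 3 and 1.51, 1.29 and 1.13 reads in those of NGFR-high. Replicate 1 was the deepest library of every sort by this measure. The lowest listed peaks stood at 5 to 8 reads, so that a missing peak means a pileup under the threshold of the caller and not closed chromatin. The number of reads behind each library is unknown from these lists.

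Almost no region passed the test between EGFR/NGFR-high and NGFR-high cells, which does not show that the other regions were equal. Of 93683 regions tested with limma, 2 were higher in EGFR/NGFR-high cells (0.00213% of those tested) and 0 were lower (0%), at an adjusted p under 0.05. The first count was 1 without EGFR/NGFR-high replicate 1, EGFR/NGFR-high replicate 3 or NGFR-high replicate 2, and 6 without NGFR-high replicate 1. Without the trend of the variance, with the mean of a region's peaks or with regions built from the 6 libraries alone it was 0, and windows around summits gave 9 higher and 6 lower. At an unadjusted p under 0.05, 2844 regions were higher and 3717 lower, 7.003% of those tested. The median log2 difference was -0.03, the median standard error of a region was 0.235, and 95.5% of regions had a log2 difference within 0.5 of 0. Only 37 regions had a log2 difference over 1 in size, 34 higher and 3 lower. The 3 values of one sort lay all beyond those of the other in 4695 regions that were higher (5.01%) and 7049 that were lower (7.52%).

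The same fit called many more regions between the other sorts. Among 78175 regions with a peak in all 12 libraries, it called 2 between EGFR/NGFR-high and NGFR-high cells, 914 between EGFR/NGFR-high and EGFR-high cells, 12347 between EGFR/NGFR-high and Mix cells, and 12411 between NGFR-high and Mix cells. These comparisons share libraries with each other. EGFR-high and Mix cells, which share no library with the comparison described here, differed at 7714 regions, 5131 higher and 2583 lower. This split is after each library was centred on its median, and no other scaling was run for these 2 sorts. The SD of the log2 difference over regions was 0.22 for EGFR/NGFR-high against NGFR-high cells and 0.37 for EGFR-high against Mix cells.

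**Figure D1:**
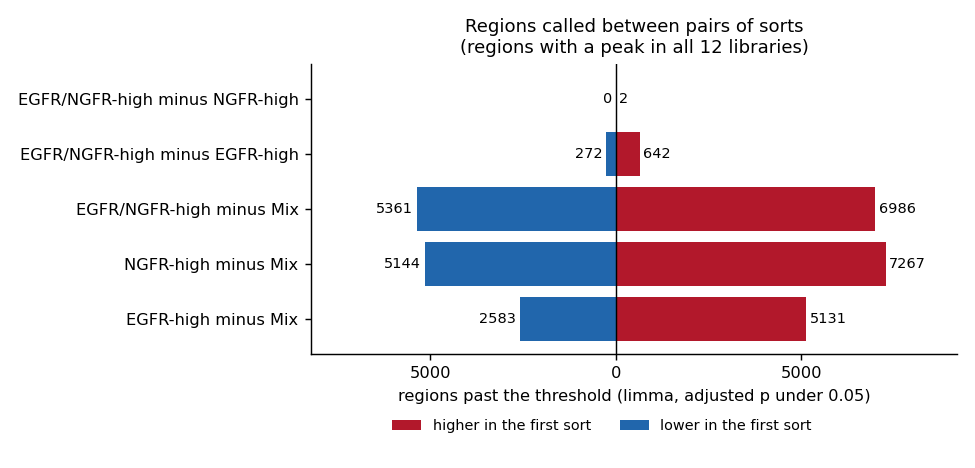
Number of regions past the threshold of limma between pairs of sorts, over the 78175 regions with a peak in all 12 libraries; bars to the right count regions higher in the first sort and bars to the left regions lower in it. The top row, EGFR/NGFR-high against NGFR-high, holds 2 and 0 regions, against 5131 and 2583 in the bottom row, EGFR-high against Mix. All counts are after each library was centred on its median.

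The region with the clearest difference lies at chr3:71425448-71426472, 43624 bp from the nearest start of FOXP1, in an intron of the gene ENSG00000285708. FOXP1 is a forkhead transcription factor. Its fold enrichment was 26.8, 20.3 and 25.8 in the EGFR/NGFR-high libraries and 10.3, 9.18 and 9.40 in the NGFR-high libraries. It was 24.3, 20.3 and 23.5 in EGFR-high and 19.3, 18.4 and 15.97 in Mix cells. NGFR-high cells were therefore below all 3 other sorts, with no overlap. The log2 difference was 1.29 ± 0.195 (SE, n = 3 per sort, limma adjusted p = 0.000493), a 2.44-fold higher value.

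The other region past the threshold is the promoter of COG2, at chr1:230689512-230690609. COG2 is a subunit of a complex that tethers vesicles at the Golgi apparatus. Its values were 35.4, 21.7 and 26.8 in EGFR/NGFR-high and 15.5, 10.1 and 14.1 in NGFR-high cells. EGFR-high cells had 43.5, 33.6 and 38.2, and Mix cells had 15.7, 15.1 and 22.7. Here both sorts with high EGFR stood above the others, except that the lowest EGFR/NGFR-high library lay below the highest Mix library. The log2 difference was 1.04 ± 0.186 (SE, n = 3 per sort, limma adjusted p = 0.0172), and that of EGFR-high against Mix cells was 1.32 (adjusted p = 6.85e-07). COG2 did not pass without EGFR/NGFR-high replicate 1 (adjusted p = 0.460), without EGFR/NGFR-high replicate 3 (0.128) or without NGFR-high replicate 2 (0.403), whereas the FOXP1 region passed with any 1 library left out. Neither region passed when the mean of a region's peaks took the place of its highest peak, with adjusted p of 0.712 and 0.660.

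The next 10 regions by p on the higher side did not pass, with adjusted p from 0.0522 to 0.176. An intergenic region 115393 bp from ST6GAL2, which encodes a sialyltransferase, had 12.5, 13.2 and 12.4 in EGFR/NGFR-high and 4.37, 5.25 and 4.70 in NGFR-high cells (log2 1.38 ± 0.264, adjusted p = 0.0522). It held peaks of 5.55 and 4.26 in EGFR-high replicates 1 and 2 and no peak in replicate 3 or in Mix cells. Only the EGFR/NGFR-high libraries were above 6 there. An intergenic region 66834 bp from HAS2, a hyaluronan synthase, had 14.6, 8.51 and 10.4 against 4.37, 4.37 and 3.76 (adjusted p = 0.115). It had 13.2, 8.04 and 5.38 in EGFR-high cells and no peak in Mix cells.

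Among the remaining higher regions were 2 introns of the noncoding gene LINC00877, whose nearest coding start is that of PROK2, a secreted prokineticin. At the first, 164341 bp from PROK2, the values were 43.7, 26.0 and 34.2 in EGFR/NGFR-high and 21.5, 14.0 and 15.04 in NGFR-high cells. EGFR-high cells had 22.2, 13.2 and 16.6 there, near NGFR-high cells, and Mix cells had 11.6, 9.43 and 11.1. The order at this region was thus highest in EGFR/NGFR-high cells and lowest in Mix cells, with a log2 difference of 0.9995 (adjusted p = 0.115) between the sorts compared. An intron of ARRB1, which encodes the receptor adaptor beta-arrestin 1, had 23.8, 12.8 and 17.4 against 8.35, 6.998 and 7.99 (adjusted p = 0.176). ARRB1 had 5.55, 6.15 and 6.85 in EGFR-high cells and no peak in Mix cells.

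CDK14, a kinase that binds cyclin Y, and AGA, a lysosomal enzyme, gave another pattern at regions that did not pass either. The CDK14 intron had 27.7, 20.3 and 23.8 in EGFR/NGFR-high and 11.5, 12.7 and 12.2 in NGFR-high cells. Mix cells, with 17.5, 20.7 and 17.9, and EGFR-high cells, with 12.8, 17.5 and 13.2, lay in between or near NGFR-high cells. The region 134806 bp from AGA had 12.8, 8.51 and 9.43 against 4.37, 3.94 and 4.23, and Mix cells had 10.3, 11.8 and 12.6. At both, NGFR-high cells were below Mix cells and EGFR/NGFR-high cells were near or above them. The other 4 regions, near KIF4B, MYEOV, HECW1 and again PROK2, had log2 differences from 0.91 to 1.24. In all, 11 of the 12 regions named on the higher side lie outside promoters, and 5 lacked a peak in at least 1 Mix library.

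**Figure D2:**
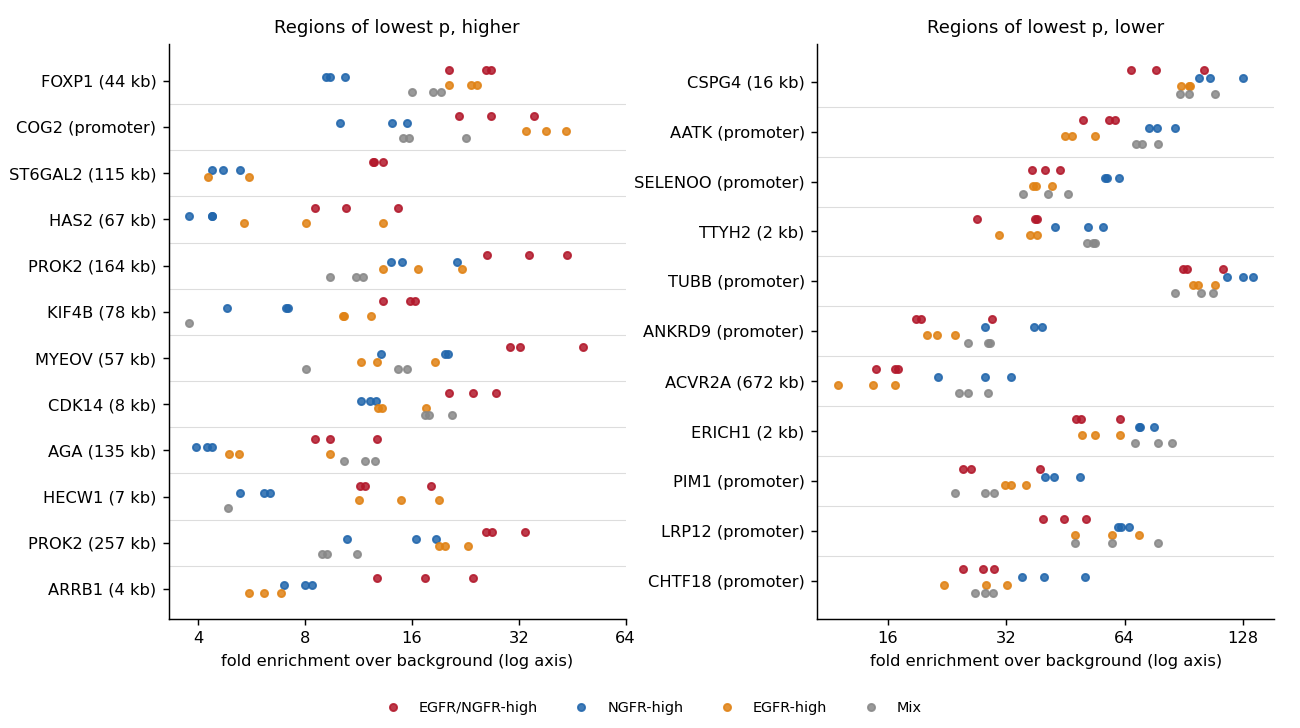
Fold enrichment over background (log axis) in each of the 12 libraries at the regions of lowest p, 12 higher and 11 lower, named by the nearest coding gene with the distance to its start or the word promoter; each point is a library, coloured by sort, and a library without a peak has no point. The EGFR/NGFR-high and NGFR-high points are apart in every row but those of CSPG4 and ANKRD9, where the deepest library overlaps before centring, and only FOXP1 and COG2 passed the threshold.

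On the lower side 0 of the 12 regions named passed, and adjusted p lay between 0.133 and 0.255. These regions had higher levels than those on the other side, with means in NGFR-high cells from 27.5 to 127 against 4.17 to 17.7, and smaller differences, with log2 values from -0.78 to -0.40. Of the 12, 8 are promoters. CSPG4, a surface proteoglycan known as a melanoma antigen, had 102, 77.0 and 66.5 in EGFR/NGFR-high and 99.0, 105 and 127.9 in NGFR-high cells at an intronic region 16231 bp from its start. These raw values overlap in EGFR/NGFR-high replicate 1, the deepest library, and separate only after the libraries were centred on their medians (log2 -0.49 ± 0.105, adjusted p = 0.133).

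The promoter of AATK, a kinase, had 58.3, 60.5 and 50.1 against 77.5, 73.9 and 86.0 (log2 -0.53, adjusted p = 0.133). EGFR-high cells had 47.0, 53.9 and 45.03 there and Mix cells 78.0, 70.7 and 68.2, so that both sorts with high EGFR were below both others. The promoter of SELENOO, a mitochondrial selenoprotein, had 43.7, 40.2 and 37.2 against 62.0, 57.7 and 56.9 (adjusted p = 0.176). NGFR-high cells stood alone at SELENOO, since EGFR-high cells had 41.8, 37.3 and 38.2 and Mix cells 40.8, 35.3 and 46.0. PIM1, a serine/threonine kinase, had 39.0, 26.0 and 24.8 against 49.3, 40.2 and 42.3 at its promoter (adjusted p = 0.246). Others were the promoters of TUBB, ANKRD9, LRP12 and CHTF18 and regions near TTYH2, ACVR2A and ERICH1.

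The sorted receptors came next. EGFR lies at chr7:55019017-55211628, and 22 regions were found in the gene or within 5 kb of it, of which 15 were tested. None of the 15 passed limma's threshold (lowest adjusted p = 0.409, lowest unadjusted p = 0.000974), 11 had a difference above 0 with a median log2 of 0.18, and in 4 the values of EGFR/NGFR-high cells lay all above those of NGFR-high cells. Over all regions tested the median was -0.03, and 5.01% lay above without overlap. At the start of EGFR the fold enrichment was 14.0, 11.3 and 7.94 in EGFR/NGFR-high and 9.54, 9.62 and 7.05 in NGFR-high cells. The values overlapped, with a log2 difference of 0.28 and a 95% interval from -0.22 to 0.79 (adjusted p = 0.875). EGFR-high cells had 14.5, 14.2 and 14.2 at this promoter and Mix cells 5.38, 4.24 and 5.81, so that NGFR-high cells lay above Mix cells and below EGFR-high cells.

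Inside EGFR the largest difference was at an intronic region 115 kb into the gene, chr7:55133633-55134136. It had 12.8, 8.51 and 11.4 in EGFR/NGFR-high and 7.95, 6.12 and 3.29 in NGFR-high cells (log2 0.95, 95% interval 0.40 to 1.499, adjusted p = 0.409), 4.27, 5.20 and 4.41 in EGFR-high cells, and no peak in Mix cells. Another intronic region, 46.3 kb into the gene, had 21.7, 19.4 and 20.8 against 15.9, 10.9 and 14.6. NGFR lies at chr17:49495293-49515008 and had 6 regions, of which 4 were tested and 0 passed, with a lowest adjusted p of 0.873 and 0 of the 4 at an unadjusted p under 0.05. After centring, 1 of the 4, an exonic region, lay higher in EGFR/NGFR-high cells without overlap, as did 5.01% of all regions tested. Among untested regions, an EGFR intron 33.3 kb into the gene held a peak only in the 3 EGFR/NGFR-high libraries (3.57, 3.78 and 3.97). An NGFR promoter region, chr17:49498101-49498320, held one only in the 3 NGFR-high libraries (4.77, 5.25 and 4.70). A peak in all libraries of one sort and none of the other was found at 0.673% and 0.255% of all regions in these directions. The most accessible start region of NGFR had 28.3, 21.3 and 21.3 in EGFR/NGFR-high and 29.4, 22.7 and 22.1 in NGFR-high cells (log2 -0.10, 95% interval -0.49 to 0.28). EGFR-high cells had 13.7 in each library there and Mix cells 13.4, 12.3 and 12.6, so that both sorts with high NGFR stood above both others.

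**Figure D3:**
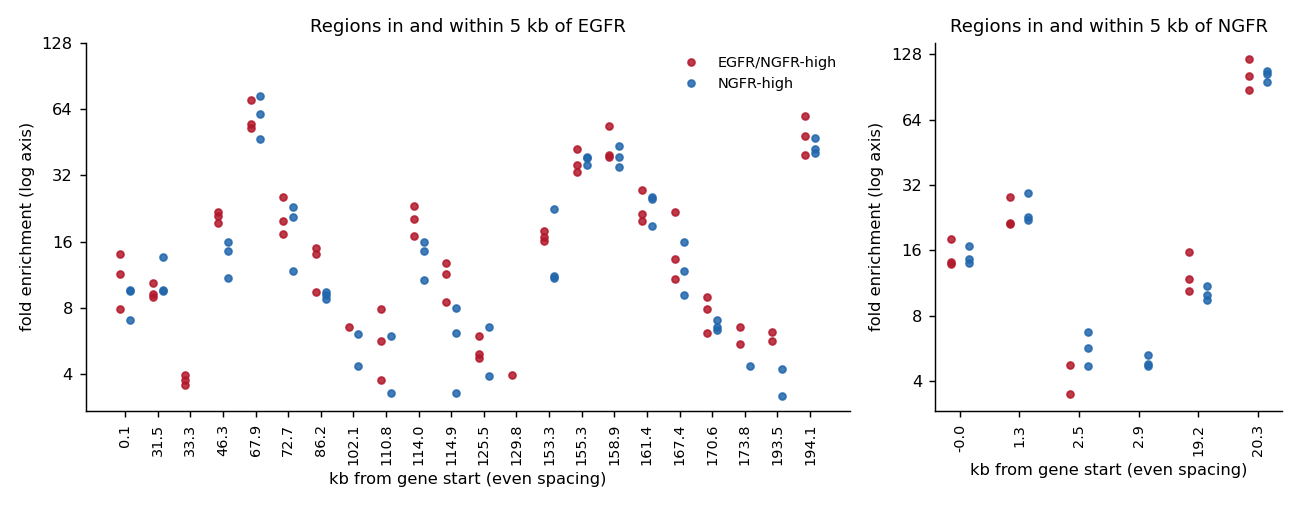
Fold enrichment (log axis) at each region in and within 5 kb of EGFR (left, 22 regions) and NGFR (right, 6 regions), ordered by the distance in kb from the gene's first base and evenly spaced; red points are the 3 EGFR/NGFR-high and blue points the 3 NGFR-high libraries, and a library without a peak has no point. At most regions the colours overlap, and the 4 tested EGFR regions without overlap have the red points above.

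EGFR-high and Mix cells, neither sorted for high NGFR, give a second difference that goes with high EGFR. The 5131 regions that were higher in EGFR-high than in Mix cells were almost as high in NGFR-high as in EGFR/NGFR-high cells. Their median log2 value, relative to the median of each library, was 1.03, 0.89 and 0.88 in EGFR/NGFR-high, 1.02, 0.80 and 0.73 in NGFR-high, 0.95, 0.80 and 0.71 in EGFR-high, and -0.09, -0.05 and -0.10 in Mix cells. The last 2 sorts chose the regions, so that their values are a description. The median log2 difference between EGFR/NGFR-high and NGFR-high cells over these regions was 0.05, and 60.4% of them were above 0 against 42.8% of all regions with a peak in all 12 libraries. That median was 0.09 both without centring and with quantile normalization. The values overlapped between the sorts, and an exact permutation test over the 6 libraries gave p = 0.4, two-sided, where 0.1 is the smallest it can give.

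The 2583 regions that were lower in EGFR-high than in Mix cells had medians of 0.20, 0.28 and 0.30 in EGFR/NGFR-high and 0.20, 0.33 and 0.43 in NGFR-high cells, against 0.84, 0.87 and 0.77 in Mix cells. Here the difference between the sorts compared was -0.06 (exact permutation p = 0.5). It was -0.02 without centring and -0.03 with quantile normalization. Over all regions with a peak in all 12 libraries the median difference was -0.04, and -0.0007 and -0.01 with those scalings. Of the 2583 regions 39.3% were above 0, against 42.8% of all these regions. At the 32 regions where EGFR-high cells exceeded Mix cells by more than 2 on the log2 scale, the difference of EGFR/NGFR-high from NGFR-high cells had a median of 0.29, between -0.22 and 0.71, and was above 0 at 28. Over all 78175 regions the differences of EGFR/NGFR-high from NGFR-high and of EGFR-high from Mix cells had a Pearson's r of 0.11. This is across regions, which are not independent replicates, from 6 libraries on each side that are not shared, and replicate 1 was the deepest library of each sort.

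The difference of EGFR-high from Mix cells also sets a marker-high sort against Mix cells. It may therefore hold traits that the marker-high sorts share beside EGFR, which was not tested. The test of whether the EGFR difference depended on the NGFR sort called 1557 of 78175 regions (1.99%), 322 with a higher and 1235 with a lower difference in the presence of high NGFR. Without centring of the libraries this split turned to 1115 and 351 of 1466, so that the balance of directions rests on the scaling. The count was 0 with the mean of a region's peaks and 254 without the trend of the variance, and it was 847, 708 and 553 without EGFR/NGFR-high replicate 2, EGFR/NGFR-high replicate 3 and NGFR-high replicate 1. The regions with the lowest values, named here after their values were seen, were high in all sorts but Mix. One near TNN, at chr1:175054670-175055771, had 28.3, 22.7 and 26.8 in EGFR/NGFR-high, 29.8, 20.6 and 20.7 in NGFR-high, 26.5, 25.1 and 22.5 in EGFR-high, and 4.93, 3.30 and 6.29 in Mix cells. Its log2 difference was 0.11 within the NGFR sorts and 2.59 between EGFR-high and Mix cells. Intergenic regions near FOXP1 and IFI44, an intron of the C1QTNF3-AMACR readthrough gene and the promoter of PTK2, which encodes focal adhesion kinase, were alike, with interaction values between -2.73 and -2.29. The regions with the highest values, also named after they were seen, were near AGA, LAMP3, TYW1B, LRMDA and PPP1R3B, with 1.76 to 1.94, and had their highest or near-highest levels in Mix cells. The PPP1R3B region had 11.01, 13.7 and 10.9 in EGFR/NGFR-high, 7.16, 10.5 and 14.1 in NGFR-high, 6.83, 13.7 and 5.87 in EGFR-high, and 30.02, 28.3 and 25.7 in Mix cells.

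Of the 16 start regions of primed-state markers with a peak in all 12 libraries, 12 had a difference of EGFR-high from Mix cells above 0, of which 5 passed limma's threshold, and 0 passed as lower. Of all 78175 regions, 54.4% were above 0, 6.56% passed as higher and 3.3% as lower. All these shares and counts are after centring, the only scaling run for EGFR-high against Mix cells. The interaction passed at 2 of the 16, AXL and FN1, against 1.99% of all regions, both with a lower value in the presence of high NGFR. AXL, a receptor tyrosine kinase of primed cells, had 25.6, 15.6 and 15.9 in EGFR/NGFR-high, 22.3, 19.2 and 16.9 in NGFR-high, 20.5, 16.5 and 15.7 in EGFR-high, and 8.06, 7.07 and 12.6 in Mix cells. FN1, which encodes fibronectin, had 46.7, 31.2 and 33.7, then 56.1, 42.4 and 32.4, then 35.0, 32.6 and 32.3, and in Mix cells 23.3, 23.1 and 25.2. At both genes the 3 marker-high sorts overlapped and lay above Mix cells. The difference of EGFR/NGFR-high from NGFR-high cells was -0.10 at AXL (95% interval -0.53 to 0.33) and -0.25 at FN1 (-0.56 to 0.05).

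**Figure D4:**
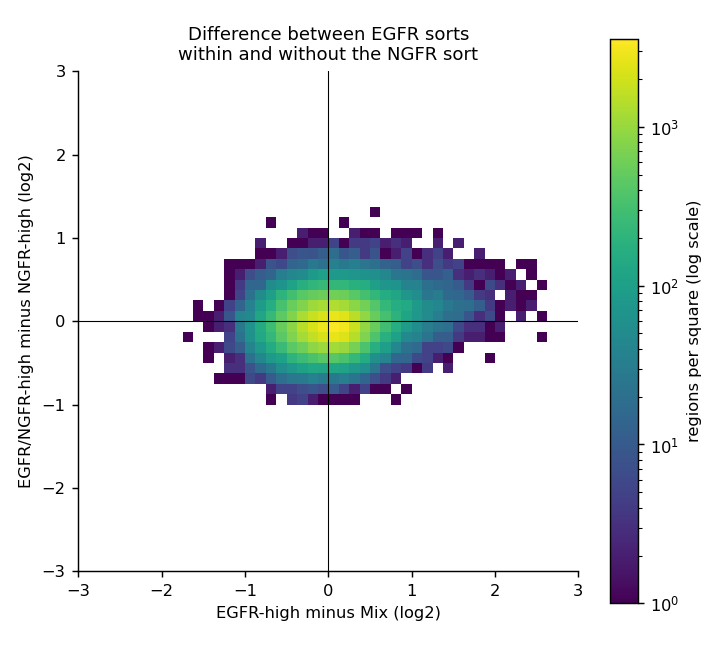
Log2 difference of EGFR/NGFR-high from NGFR-high cells (vertical axis) against that of EGFR-high from Mix cells (horizontal axis) for the 78175 regions with a peak in all 12 libraries, as the number of regions per square of 0.125 by 0.125 (log colour scale). The cloud is wider along the horizontal axis (SD 0.37) than along the vertical axis (SD 0.22), and the 32 regions above 2 on it have a median of 0.29 on the vertical axis.

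Genes of the pathways that the sort could involve were followed at their start regions, taken as the region of highest mean within 1000 bp of an annotated start. Of 155 genes on 13 lists, 140 had such a region, and 133 distinct regions were tested. None passed limma's threshold (lowest adjusted p = 0.445), and 10 of the 133 had an unadjusted p under 0.05, against 7.003% of all regions tested. The log2 differences lay between -0.52 and 0.28 with a median of -0.09, which is near the median of -0.08 over all 20006 promoter regions tested. Values did not overlap in 1 region that was higher (0.752%) and 16 that were lower (12.03%), against 2.72% and 13.2% of all promoter regions.

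Among ligands, receptors and feedback genes of the EGFR family, 12 start regions were tested, 0 passed and the sorts overlapped at every one. The receptors ERBB2, ERBB3 and ERBB4 had log2 differences of -0.14, -0.02 and 0.11. LRIG1, a negative regulator of EGFR, had 335, 310 and 286 in EGFR/NGFR-high and 295, 291 and 319 in NGFR-high cells, with a 95% interval of the log2 difference from -0.14 to 0.15. DUSP6, a phosphatase that ERK signalling induces, had 109, 89.8 and 100 against 80.3, 89.7 and 93.6 (log2 0.15). The ligand gene HBEGF had a difference of -0.25 and TGFA one of -0.14. BTC, another EGFR ligand, had no peak at its start in EGFR/NGFR-high and peaks of 5.25 and 4.23 in NGFR-high replicates 2 and 3, and AREG, EREG and EPGN had no start region.

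Neurotrophin genes gave 6 tested start regions, of which 0 passed. NTRK2, a neurotrophin receptor kinase, had a log2 difference of 0.27 and the co-receptor gene SORT1 one of -0.13. Of 16 tested start regions of primed-state markers 0 passed. NT5E, an ectonucleotidase that the study used as a marker of the primed state, had 44.04, 38.8 and 32.3 in EGFR/NGFR-high and 53.7, 48.5 and 52.7 in NGFR-high cells, with 34.1, 41.1 and 33.3 in EGFR-high and 31.4, 30.2 and 48.4 in Mix cells. NGFR-high cells were the highest sort at NT5E, but the log2 difference of -0.48 ± 0.142 did not pass (adjusted p = 0.445). CCN1, a matricellular YAP target, had 23.5, 11.8 and 14.4 against 12.7, 12.7 and 14.6, with overlap.

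Melanocyte identity genes, which mark the lineage of WM989, were accessible in all 6 libraries. The master regulator MITF had 288, 265 and 248 in EGFR/NGFR-high and 270, 275 and 270 in NGFR-high cells, and SOX10 had 28.0, 26.5 and 27.8 against 24.7, 29.7 and 23.98. PMEL, a melanosome protein that shares its start region with CDK2, had 228, 161 and 169 against 163, 160 and 195. The difference at these 3 start regions was between -0.06 and 0.06 on the log2 scale, and at the 15 tested regions of the list it lay between -0.23 and 0.21, with 0 past the threshold. PTPRC, CD3E, KRT5 and PECAM1, defining genes of leukocytes, epithelium and endothelium, had no start region. LYZ, EPCAM, KRT14 and CDH5 had one in all 6 libraries. KRT14, with 28.9, 19.4 and 20.8 against 37.4, 31.1 and 27.7, was the lowest of these 4 in log2 difference (-0.52, adjusted p = 0.498), and none passed.

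Factors and targets of the AP-1, TEAD, TGF-beta, epithelial-mesenchymal transition, neural crest and PI3K lists also held 0 regions past the threshold. WWTR1, which encodes the TEAD coactivator TAZ, had 107, 92.6 and 91.3 against 88.7, 79.2 and 86.0, the only start region followed where the EGFR/NGFR-high values lay all above after the libraries were centred (log2 0.16, adjusted p = 0.795). Median log2 differences were -0.17 for the 10 start regions of EMT factors and cadherins, -0.11 for 12 of AP-1 factors, -0.09 for 14 of the PI3K pathway and -0.15 for 8 of housekeeping genes. They were 0.01 for TEAD and YAP genes, and -0.02 for TGF-beta genes and -0.03 for neural crest factors, where the sign turned positive without centring or with quantile normalization. INSR, the insulin receptor, had 28.0, 19.4 and 15.4 against 29.8, 30.2 and 25.4 (log2 -0.52, adjusted p = 0.518). Among neural crest factors, the start of GFRA2, a co-receptor for ligands of the GDNF family, held a peak in all 3 EGFR/NGFR-high libraries, with 4.46, 4.25 and 6.95, and in no NGFR-high library. Mix replicate 3 also had a peak there, of 4.84. A peak in all EGFR/NGFR-high and no NGFR-high library was found at 0.673% of all regions.

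Promoters as a class had lower values relative to other regions in the 3 EGFR/NGFR-high libraries than in the 3 NGFR-high libraries. The median log2 value of promoters minus that of the other regions was 1.09, 1.17 and 1.09 in the EGFR/NGFR-high libraries and 1.24, 1.25 and 1.19 in the NGFR-high libraries. The values did not overlap, and the exact permutation test gave p = 0.1, two-sided, the smallest that 3 against 3 allow. The median difference was -0.08 over promoters, -0.01 over 42802 intronic regions and -0.01 over 26968 intergenic regions. In the same order it was -0.05, 0.03 and 0.03 without centring, and -0.05, 0.009 and 0.006 with quantile normalization. Without overlap, 5.69% and 5.62% of the intronic and intergenic regions were higher and 5.87% and 6.11% lower.

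Regions that hold an AP-1 motif had the largest difference between the sorts' means among 14 motifs, with overlap between the libraries. AP-1 factors, dimers of FOS and JUN proteins, bind the letters TGANTCA, and 25.3% of the 73677 tested regions outside promoters held them within the 300 bases around the summit. Regions with the motif exceeded those without by a mean log2 value of 0.25, 0.13 and 0.12 in EGFR/NGFR-high, 0.13, 0.02 and 0.03 in NGFR-high, 0.05, 0.01 and 0.0020 in EGFR-high, and -0.01, -0.04 and -0.05 in Mix cells. The mean was 0.17 in EGFR/NGFR-high and 0.06 in NGFR-high cells, but replicate 1 of NGFR-high lay within the range of EGFR/NGFR-high. In each sort the highest value was that of replicate 1, the library of highest background pileup, and the part of depth in this value was not tested. Without overlap between sorts, 9.69% of AP-1 regions were higher and 3.31% lower, against 4.26% and 6.89% of regions without the motif.

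The 13 other motifs differed by at most 0.028 in size between the sorts on this scale. SOX was the 1 motif of 14 without overlap, with 0.09, 0.09 and 0.06 in EGFR/NGFR-high and 0.10, 0.11 and 0.10 in NGFR-high cells, and it was held by 49.0% of the 200 higher and 63.5% of the 200 lower regions described next, against 56.5% of all regions outside promoters. Of regions chosen by other libraries, 52.5% of those higher and 73.7% of those lower in EGFR-high than in Mix cells held it. They were CRE (TGACGTCA), TEAD (GGAATG), SOX (ACAANG), an E-box (CACGTG), the M-box (TCATGTG), ETS (CCGGAA), RUNX (TGTGGTT), TFAP2 (GCCNNNGGC), STAT (TTCNNNGAA), C/EBP (TTGCNNAA), FOX (TGTTTAC), NFI (TTGGCA) and CTCF (CCANNAGGG). AP-1 and CRE motifs share their outer letters. Of the 200 regions of lowest p outside promoters in each direction, 55.5% of those higher and 11.5% of those lower in EGFR/NGFR-high cells held an AP-1 motif, against 23.5% of all regions outside promoters. These shares describe regions that the same contrast chose. For regions chosen by other libraries, 40.4% of those higher in EGFR-high than in Mix cells and 18.6% of those lower held it.

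**Figure D5:**
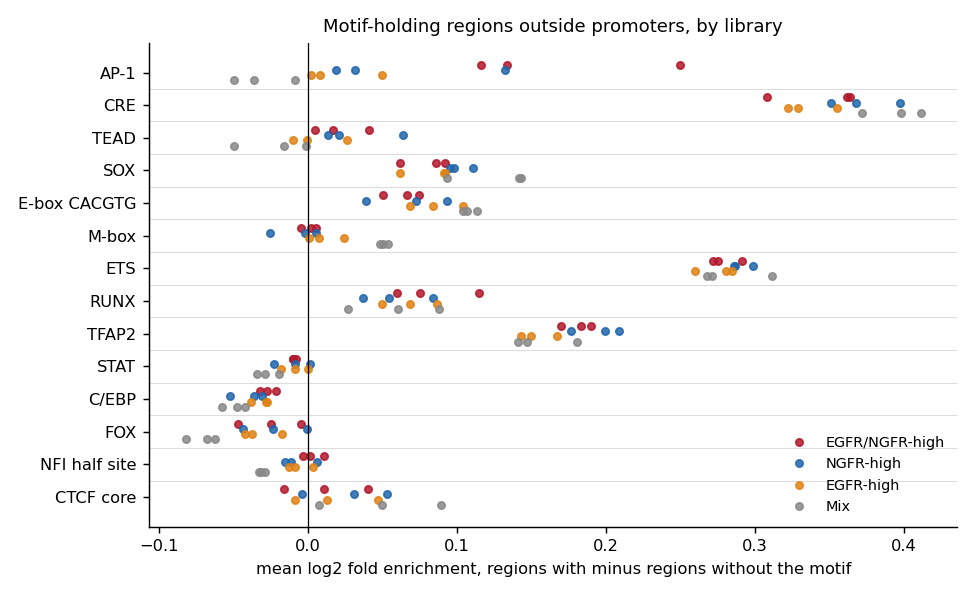
Mean log2 fold enrichment of regions that hold a motif minus that of regions that do not, for 14 motifs in the 300 bases around the summit of 73677 regions outside promoters; each point is a library, coloured by sort. At AP-1 the EGFR/NGFR-high libraries lie at 0.25, 0.13 and 0.12 and the NGFR-high libraries at 0.13, 0.02 and 0.03, and at the other motifs the sorts differ by at most 0.028 in size.

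Few regions held a peak in all libraries of one sort and none of the other. A peak in all 3 EGFR/NGFR-high and no NGFR-high library was found at 1021 of the 151653 regions (0.673%), and the reverse at 387 (0.255%). Among the 50000 intervals of lowest q in each library, which gives lists of equal length, the counts were 247 and 182, and windows around summits gave 1281 and 831. With any 1 of the 6 libraries left out the counts lay between 1513 and 2523 and between 655 and 1432. They can only rise then, since the rule asks for fewer libraries. These regions were close to the caller's threshold. The lowest of the 3 values had a median of 3.87 in the first set and 3.94 in the second, and it was under 5 in 93.3% and 95.1% of them. Of the 1021 regions, 329 (32.2%) had no peak in EGFR-high or Mix cells either, and of the 387 regions 92 (23.8%). Promoters made up 7.74% and 14.7% of the sets, against 17.7% of all regions, and an AP-1 motif was held by 39.2% and 10.9% of their regions outside promoters, against 23.5% of all such regions.

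The strongest region of the first set lies at chr4:186808683-186808943, 82109 bp from FAT1, a large cadherin. It had 8.63, 7.56 and 7.44 in EGFR/NGFR-high cells, and peaks between 4.71 and 6.72 in 2 of the 3 libraries of both other sorts. Regions near TNFSF18, with 7.44, 7.09 and 6.95, and near MXRA5 on the X chromosome, with 6.84, 6.62 and 7.44, held a peak in the EGFR/NGFR-high libraries alone. A region 14545 bp from KLF4, a zinc finger factor, had 6.84, 7.09 and 6.45, and 1966 bp from the start of PEMT, a phospholipid methyltransferase, an intron had 7.74, 9.45 and 6.45. In the reverse set an intron of GRM5, a glutamate receptor, came first with 7.16, 6.998 and 6.58 in NGFR-high cells. EGFR-high replicates 2 and 3 had 4.26 and 3.43 there, and Mix replicates 1 and 2 had 9.41 and 6.13, the former above all NGFR-high libraries. It was followed by introns of STPG2 and B4GALT6, a region at ATF6 and an exon of RAD1, with lowest values from 5.64 to 6.11.

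Whole peak lists had similar overlaps between and within the sorts. The Jaccard index, the bases shared by 2 lists divided by the bases in either, averaged 0.709 within EGFR/NGFR-high (0.694 to 0.728), 0.725 within NGFR-high (0.713 to 0.734) and 0.718 between them (0.697 to 0.741). The mean within minus the mean between sorts was -0.00103, and the exact permutation test over the 10 splits of 6 libraries gave p = 0.5, one-sided, where 0.1 is the smallest it can give, so that this test could not have passed 0.05. Without EGFR/NGFR-high replicate 1, 2 or 3 the difference was above 0, at 0.00508, 0.00102 and 0.00247. Without NGFR-high replicate 1, 2 or 3 it was below 0, at -0.0031, -0.0063 and -0.0053. The exact permutation p lay between 0.2 and 0.9 when a library was left out. EGFR/NGFR-high lists had a mean index of 0.691 with EGFR-high and 0.667 with Mix lists.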

How the data were processed

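WM989 melanoma cells were sorted by the authors into 4 populations with 3 ATAC-seq libraries each. Per the labels and methods, the authors aligned reads to hg38 with bowtie2 2.3.4.1, filtered them with samtools 1.1, removed duplicates with picard and called peaks per library with MACS2 2.1.1.20160309. The deposited lists give fold enrichment as a ratio of pileup to background and the −log10 of q-values, and no read counts. Depth is unknown beyond the background pileup recovered from the steps of the fold enrichment (tolerance 0.02 of a step), and it limits the precision of low peaks.

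Repeated intervals were dropped, and intervals on chromosomes 1 to 22 and X were merged and kept where found in at least 3 of the 12 libraries. A region's value was its highest fold enrichment, on the log2 scale, centred on the library's median. Regions with a peak in all 6 libraries were tested with limma 3.58.1 (R 4.3.3, trend on intensity, two-sided, Benjamini-Hochberg over all regions, threshold 0.05) in a fit of all 12 libraries, where a missing peak in another sort stayed missing. The interaction was tested on regions with a peak in all 12. The fit was tested on simulated data. Regions were annotated with GENCODE 44, with promoters within 1000 bp of a start and the nearest coding gene. Python 3.11.15 with numpy 2.4.6, pandas 2.3.3, scipy 1.17.1 and matplotlib 3.10.9 served for the rest.

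Named regions are, in each direction, the 12 of largest difference past the threshold without overlap and with a mean of at least 5, filled with those of lowest p, said not to pass. They also include the start regions of listed genes and the 5 strongest regions of each presence set. Gene lists, motifs and members were chosen with earlier results of these data known. Alternatives were other scalings, values, filters, merges and samples. The single-cell files were not used. A few of these items are not reported here.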

Additional observations from a re-analysis of the deposited data

Results flagged for a closer look

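At 1557 of 78175 regions the difference of EGFR/NGFR-high from NGFR-high cells was not the same as that of EGFR-high from Mix cells. This is by limma's interaction term with Benjamini-Hochberg adjustment. The second difference also sets a marker-high sort against Mix cells, so that it may hold more than EGFR, which was not tested. The values below are the log2 difference of EGFR/NGFR-high from NGFR-high cells minus that of EGFR-high from Mix cells, with n = 3 libraries per sort. Among the regions of lowest p, it was 1.94 near AGA, 1.12 at CDK14, -0.60 at CSPG4, -0.72 at SELENOO, -0.64 at TUBB, -1.11 at PIM1, -0.66 at LRP12 and -0.77 at CHTF18. These regions were chosen by 1 of the 2 differences that enter the value. Among start regions, it was -1.39 at EGFR, -1.25 at AXL and -0.92 at FN1, where the difference of EGFR-high from Mix cells was the larger one. The housekeeping promoters of GAPDH and PPIA were also different, with -0.56 and -0.55 (limma adjusted p = 0.00704 and 0.0437). All these values are after centring. The 1557 regions were 322 with a higher and 1235 with a lower value, and without centring the split turned to 1115 and 351. With the mean of a region's peaks the count was 0.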

How the results depend on the processing

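With 2 regions higher and 0 lower as the main counts, the higher count became 4 with a replicate block, also together with quantile normalization, 0 without the variance trend, with the mean of a region's peaks or with a consensus of the 6 libraries, 1 with missing peaks set to the lowest value, 8 with only the 6 libraries fitted, and 9, with 6 lower, for windows around summits. Leaving out 1 library gave 1 to 6 higher and 0 lower. The interaction count of 1557 became 2782 with a replicate block, 254 without the trend, 0 with the mean of a region's peaks, and 553 to 2085 with 1 library left out. The presence counts of 1021 and 387 became 247 and 182 among the 50000 intervals of lowest q, and the second 831 with summit windows. Leaving out 1 library, which can only raise the presence counts, gave 1513 to 2523 and 655 to 1432. It gave a Jaccard difference of -0.00633 to 0.00508. The causes were not tested. Deviations from the sort mean had correlations of 0.17, 0.056 and 0.16 between same-numbered EGFR/NGFR-high and NGFR-high libraries. Between differently numbered ones the correlations lay from -0.16 to 0.003. Same-numbered libraries were thus more alike, but the main fit did not use the numbers, and only the replicate block did. What the numbers stand for is not stated. The FOXP1 and COG2 differences stayed above 0 in the 12 alternatives in which they were followed. Low pileup limits what can be seen at low peaks, since a peak needs 5 to 8 reads.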

Other observations

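Differences along the genome were small. In 1302 windows of 2 Mb with 20 or more tested regions, the median log2 difference of EGFR/NGFR-high from NGFR-high cells lay between -0.17 and 0.20, with an SD of 0.056 over windows. The highest window, on chromosome 8 from 120 to 122 Mb, had 103 regions, of which 83 were above 0. Its median value relative to each library's median was 0.44, 0.51 and 0.43 in EGFR/NGFR-high and 0.23, 0.29 and 0.14 in NGFR-high cells. It was chosen for this difference, and the difference of EGFR-high from Mix cells, which took no part in the choice, had a median of 0.37 there. Over the 8 highest windows that median ranged from -0.12 to 0.40, and it was -0.12 in the second highest, on chromosome 17 from 12 to 14 Mb.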
